A study of Mus musculus with 11 samples.

Results

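The amino acid transporter genes described here are the 42 of the 54347 genes in the count table whose mouse gene symbol belongs to the Slc1a, Slc3a, Slc7a, Slc36a, Slc38a or Slc43a families. They were selected by symbol alone, but the choice was made with earlier results of these data known. Of the 42 genes, 24 passed a filter on low counts and were tested, and 18 did not pass. The cells were long-term haematopoietic stem cells (LT-HSCs) of female C57BL/6NTac mice, sorted for RNA sequencing as CD150+ CD48- cells with the lineage-negative, Sca-1+, c-Kit+ surface profile and divided by the sialomucin endomucin. The groups were 4 libraries of EMCN+ LT-HSCs, 3 libraries of EMCN- LT-HSCs and 4 libraries of granulocyte-monocyte progenitors (GMPs), the committed population set beside them. All came from the bone marrow of the same 4 mice, which carried no engineered allele and received no treatment according to the labels, and whose age is not given in the sources used here. The submitters removed the EMCN- library of mouse 3 for poor quality, and each LT-HSC library was made from 3000 to 5000 sorted cells. The populations were compared at the RNA level only, so surface protein and transport itself were not measured.

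Amino acid transporters of these families carry amino acids across the plasma membrane and the lysosomal membrane. SLC3 proteins are heavy chains: Slc3a2 encodes CD98, which brings light chains of the SLC7 family to the cell surface, where they exchange one amino acid for another. Other SLC7 members carry arginine and lysine without a heavy chain, SLC1 members carry glutamate or small neutral amino acids with sodium, and SLC38 members (SNATs) carry glutamine and alanine. SLC36 members (PATs) are proton-coupled, and SLC43 members carry large neutral amino acids without a heavy chain. Amino acid supply through these proteins feeds protein synthesis and is read by the mTORC1 kinase complex on the lysosome, and shortage induces several of the genes through the transcription factor ATF4.

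Promoter sequence was available from RefSeq (GRCm38.p6) for 31 of the 42 genes as windows of 300 bases, with 250 before and 50 after the transcription start. The following 3 stretches, each from 150 bases before the start to the first 4 bases after it, are shown because they hold the letters of elements known for nutrient control and belong to genes described below. Capitals mark matches to TGATGNAA, the core of the C/EBP-ATF element, in Slc1a4 and Slc7a11, and to CACGTG, an E-box, in Slc36a1. They lie at chr11:20332710-20332863 on the minus strand for Slc1a4, chr3:50443610-50443763 on the minus strand for Slc7a11 and chr11:55204190-55204343 on the plus strand for Slc36a1, and are written 5′ to 3′ on the strand of the gene.
Slc1a4: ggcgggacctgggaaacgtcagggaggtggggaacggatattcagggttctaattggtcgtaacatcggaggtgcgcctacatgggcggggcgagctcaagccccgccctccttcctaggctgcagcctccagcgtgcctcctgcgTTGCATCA
Slc7a11: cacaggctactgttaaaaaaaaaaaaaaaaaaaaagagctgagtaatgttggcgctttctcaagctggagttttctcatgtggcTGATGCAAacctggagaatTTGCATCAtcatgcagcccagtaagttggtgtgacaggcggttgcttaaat
Slc36a1: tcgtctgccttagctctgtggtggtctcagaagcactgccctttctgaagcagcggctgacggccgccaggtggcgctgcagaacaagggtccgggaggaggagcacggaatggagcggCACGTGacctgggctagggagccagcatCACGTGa
Searched on both strands over whole windows, TGATGNAA was present in 3 of the 31 genes (9.68%), which were Slc1a4, Slc7a11 and Slc7a7, against 4.51% of the 27025 genes with a window. CACGTG reads the same on both strands and was present in 7 of the 31 genes (22.6%), against 8.09% of all genes. Those 7 were Slc1a6, Slc1a7, Slc36a1, Slc38a5, Slc38a7, Slc43a1 and Slc7a14. A match describes these letters and is not a measured binding site.

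Library totals ran from 3.63 M to 11.1 M estimated counts, and 1 count was worth 0.0697 to 0.235 CPM (a count scaled to the size of its library) after TMM scaling. Levels below are TMM-scaled CPM, log2 differences and adjusted p-values come from edgeR's quasi-likelihood test over all 14915 genes that passed the filter, and a gene was called at an adjusted p under 0.05. The sorted populations carried their defining markers. The 12 LT-HSC markers summed to 2036 to 2392 CPM in EMCN+ LT-HSCs, 1665 to 1960 CPM in EMCN- LT-HSCs and 182 to 254 CPM in GMPs. The 12 GMP markers summed to 67.7 to 72.7, 54.6 to 68.5 and 15623 to 18965 CPM in the same order of populations. Mature neutrophil and macrophage markers summed to 9.9 to 15.1, 12.5 to 18.1 and 171 to 579 CPM, and T and NK cell markers to 8.65 to 10.6, 10.9 to 13.2 and 131 to 140 CPM, again in that order. Of the T and NK cell sum in GMPs, 133 ± 3.94 CPM came from Nkg7 alone. Cd4 and Klrb1c of that list were lower in GMPs than in both LT-HSC groups, and Cd3e and Ncr1 had no counts. The 8 mast cell and basophil markers summed to 206 to 225, 191 to 225 and 199 to 385 CPM in the same order. Gata2 averaged 215 ± 7.63, 211 ± 19.2 and 51.6 ± 22.9 CPM of these sums. All other markers of the list were higher in GMPs, among them Cpa3 at 0.453, 1.84 and 86.6 CPM. The part of these markers in the differences from GMPs was not tested. In bulk samples fewer cells of a type and less RNA per cell cannot be told apart. The scaling matters for LT-HSCs against GMPs: TMM put the median of all genes at a log2 difference of 0.03, scaling by total counts moved it by 0.78, and scaling by totals over nuclear protein-coding genes moved it by 0.37. Of the genes called, 4852 were higher and 4463 lower with TMM, 9063 were higher and 1907 lower with total counts, and 6306 were higher and 2617 lower with protein-coding totals. Upper-quartile factors moved the median by 0.12. Where the direction or call of a transporter against GMPs depends on this choice, the values stand beside the gene.

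The SNAT genes Slc38a1, Slc38a2, Slc38a6 and Slc38a10 were the most abundant transporter genes by CPM. Slc38a1, Slc38a2, Slc38a6 and Slc38a10 together held 56.9 to 60.1% of the summed transporter CPM in EMCN+ LT-HSCs, 56.6 to 61.6% in EMCN- LT-HSCs and 50.6 to 54.9% in GMPs, so both LT-HSC groups lay above the GMP range. Of the summed level per kilobase of the longest coding transcript they held 50.9 to 55.9%, 50.1 to 56.1% and 43.2 to 49.1% in the same order. Per kilobase, Slc38a2 led in EMCN+ LT-HSCs at 26.7 CPM per kb, followed by Slc38a6 at 25.5, Slc38a1 at 19.8, Slc38a10 at 17.6 and Slc3a2 at 14.9. In EMCN- LT-HSCs Slc38a2 stood at 26.2 CPM per kb and Slc38a6 at 26.1. In GMPs Slc38a6 stood at 28.7 CPM per kb, Slc38a2 at 24.7, Slc38a1 at 19.0, Slc38a10 at 18.8, Slc43a3 at 18.3 and Slc3a2 at 16.9. Neighbours in these orders lie within the spread of the libraries for Slc38a6, whose levels differed between mice as described below. Summed over all 42 genes the level was 770 ± 36.7 CPM in EMCN+ LT-HSCs (SD, n = 4), 765 ± 57.3 CPM in EMCN- LT-HSCs (n = 3) and 852 ± 19.3 CPM in GMPs (n = 4). The ratio of LT-HSCs to GMPs was 0.901 with TMM and 1.54 with total counts, so the direction of the summed level rests on the scaling.

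**Figure D1:**
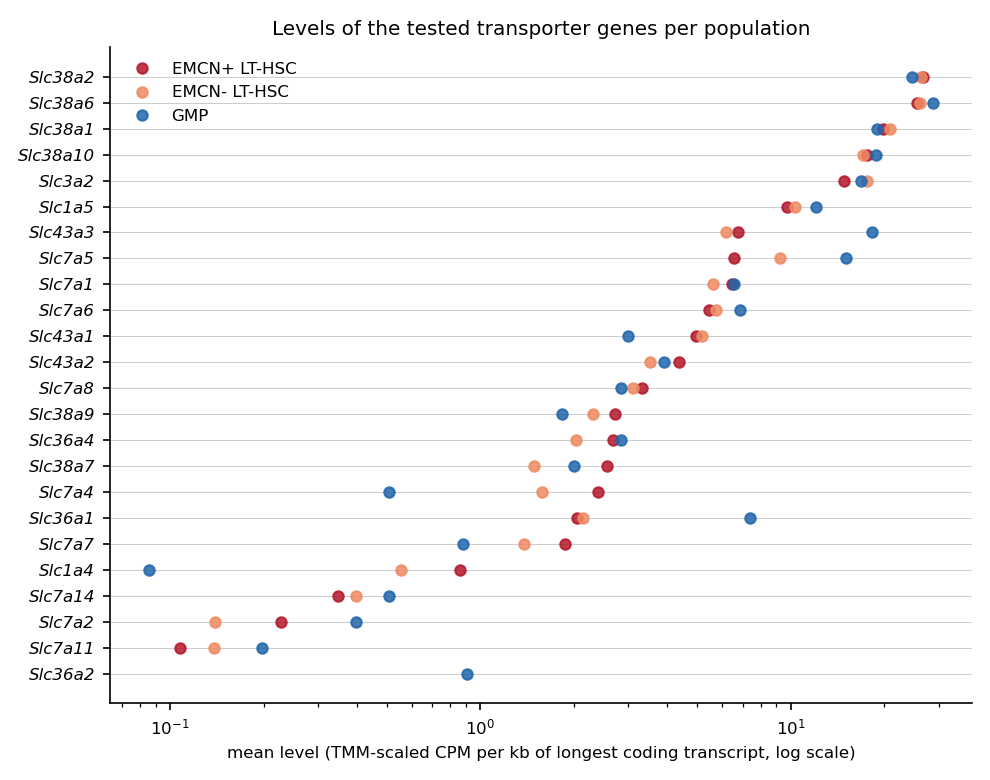
Mean level of the 24 tested transporter genes in EMCN+ LT-HSCs (n = 4), EMCN- LT-HSCs (n = 3) and GMPs (n = 4), as TMM-scaled CPM per kilobase of the longest coding transcript on a log axis. The 4 SNAT genes lie at the top with the populations close together, Slc36a1 and Slc43a3 have the GMP point to the right, Slc1a4 and Slc7a4 have it to the left, and Slc36a2 has no LT-HSC point because its count was 0 there.

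Against GMPs, 5 of the 24 tested genes were higher in LT-HSCs (20.8%) and 5 were lower (20.8%), where 32.5% of all tested genes were higher and 29.9% were lower. The genes that rose in LT-HSCs were Slc1a4, Slc7a4, Slc7a7, Slc43a1 and Slc38a9, and those that fell were Slc36a2, Slc36a1, Slc43a3, Slc7a2 and Slc7a5. All 10 kept their direction under TMM, relative-log-expression (RLE), upper-quartile and total-count scaling, as did the 9 tested with protein-coding scaling, which did not test Slc36a2. Slc7a5 and Slc7a2 lost their calls under some of these. Slc1a4, Slc7a4 and Slc7a7 passed the low-count filter only through the LT-HSC libraries and Slc36a2 only through the GMP libraries. The testing of these 4 thus depended on the group where they were high, and their p-values are no independent support. The share called, 41.7%, was below the 62.5% of all genes. The median log2 difference was -0.11 over the 24 genes, and 10 of the 24 were positive. Every LT-HSC library lay above every GMP library for 3 genes, Slc1a4, Slc7a4 and Slc43a1, a pattern of 25% of all genes. With TMM every LT-HSC library lay below every GMP library for 4 genes, Slc36a1, Slc43a3, Slc7a2 and Slc7a5, a pattern of 23% of all genes. Scaled by total counts, Slc7a2 and Slc7a5 overlapped between LT-HSCs and GMPs.

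**Figure D2:**
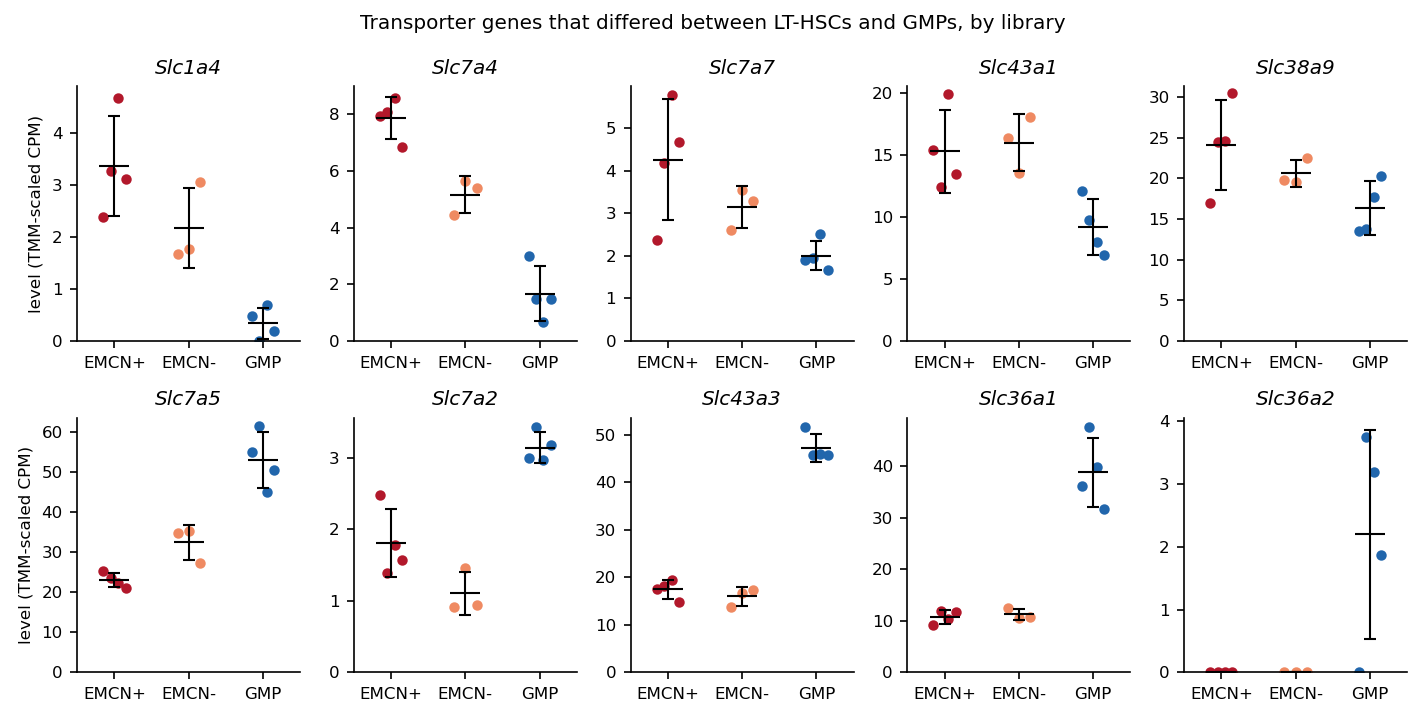
TMM-scaled CPM in every library for the 10 transporter genes called between LT-HSCs and GMPs, with EMCN+ LT-HSCs left (n = 4), EMCN- LT-HSCs in the middle (n = 3) and GMPs right (n = 4). Points are libraries and bars are mean ± SD, on linear axes from 0. The top row holds genes higher in LT-HSCs and the bottom row genes lower in LT-HSCs, and Slc36a2 is at 0 in all 7 LT-HSC libraries and in GMP replicate 1.

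Among heavy and light chains, the light chain Slc7a5 fell in LT-HSCs, while its heavy chain Slc3a2 did not pass the test. Slc7a5 encodes LAT1, the exchanger of leucine and other large neutral amino acids for glutamine. It measured 25.2, 23.4, 22.3 and 21.1 CPM in EMCN+ LT-HSCs, 34.7, 35.2 and 27.3 CPM in EMCN- LT-HSCs and 55.1, 61.5, 45.1 and 50.4 CPM in GMPs. With TMM the 3 populations did not overlap, with EMCN+ lowest and GMPs highest, but scaled by total counts they overlapped. The LT-HSC minus GMP log2 difference was -0.99 ± 0.11 (SE), 1.99-fold lower in LT-HSCs with adjusted p = 1.18e-07. With total-count scaling it was -0.20 with adjusted p = 0.145. Slc3a2 measured 44.7, 41.6, 41.7 and 39.7 CPM in EMCN+ LT-HSCs, 49.4, 51.0 and 47.9 CPM in EMCN- LT-HSCs and 50.8, 44.1, 40.3 and 54.5 CPM in GMPs. The GMP libraries overlapped both LT-HSC groups, and the difference from GMPs was -0.08 ± 0.10 with adjusted p = 0.531. Its sign turned with upper-quartile (0.05), total-count (0.70) and protein-coding (0.30) scaling, and the last 2 called it higher. The ratio of Slc7a5 to Slc3a2, each per kilobase, was 0.439 ± 0.0142 in EMCN+ LT-HSCs, 0.523 ± 0.0592 in EMCN- LT-HSCs and 0.904 ± 0.157 in GMPs (SD, n = 4, 3 and 4), and this ratio does not depend on the scaling.

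The light chain Slc7a7, which exports arginine and lysine in exchange for neutral amino acids, went the other way. It measured 2.38, 4.18, 5.79 and 4.69 CPM in EMCN+ LT-HSCs, 2.60, 3.55 and 3.29 CPM in EMCN- LT-HSCs and 1.89, 1.96, 2.50 and 1.68 CPM in GMPs. The lowest EMCN+ library lay under the highest GMP library. The log2 difference was 0.90 ± 0.37 with adjusted p = 0.0389, and 10 of 21 alternatives did not keep the call. These were no low-count filter (0.0907), limma-voom (0.0757), the mouse block over 9 libraries (adjusted p = 0.0889) and leaving out EMCN+ replicate 2 (0.066), 3 (0.0875) or 4 (0.0653), EMCN- replicate 2 (0.0573) or GMP replicate 1 (0.0723), 2 (0.0732) or 4 (0.0876). The p of the main fit is no independent support, as Slc7a7 passed the low-count filter only through the LT-HSC libraries. Exons of Slc7a7 overlap those of Oxa1l on the opposite strand, and whether the counting used strand is not given in the sources used here.

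Slc7a6, a second light chain of the same arginine and glutamine exchange, measured 20.1, 20.6, 20.6 and 20.7 CPM in EMCN+ LT-HSCs, 19.0, 24.5 and 21.1 CPM in EMCN- LT-HSCs and 29.3, 17.8, 27.1 and 28.6 CPM in GMPs. GMP replicate 2 lay below all 7 LT-HSC libraries and the other 3 GMP libraries above them, and the difference, -0.29 ± 0.14, had adjusted p = 0.0766. It passed the threshold without GMP replicate 2 (-0.44, adjusted p = 0.00657) or without EMCN- replicate 2 (adjusted p = 0.0338), and its sign turned with total-count (0.48, called higher) and protein-coding (0.08) scaling. Slc7a8, the light chain LAT2 for neutral amino acids, averaged 13.5 ± 0.642, 12.6 ± 1.44 and 11.6 ± 3.94 CPM in EMCN+ LT-HSCs, EMCN- LT-HSCs and GMPs and was not called with TMM (0.19 ± 0.20, adjusted p = 0.439). It was called higher in LT-HSCs with total-count (0.96, adjusted p = 0.000312) and protein-coding (0.56, adjusted p = 0.0130) scaling. Slc7a11, the cystine-glutamate exchanger xCT, was scarce. It measured 0.298, 1.32, 0.780 and 1.56 CPM in EMCN+ LT-HSCs, 1.84, 0.807 and 1.17 CPM in EMCN- LT-HSCs and 2.68, 1.80, 2.28 and 0.560 CPM in GMPs. Its groups overlapped, and the difference from GMPs of -0.74 ± 0.55 had adjusted p = 0.260 and turned to 0.0496 with total-count scaling.

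Among the SLC7 members that need no heavy chain, the highest by level, Slc7a1, was not called, while 2 less abundant members were called in opposite directions. Slc7a1 encodes CAT1, the general importer of arginine and lysine. It measured 44.5, 50.4, 42.9 and 48.7 CPM in EMCN+ LT-HSCs, 40.5, 35.0 and 45.3 CPM in EMCN- LT-HSCs and 43.7, 50.6, 44.6 and 49.8 CPM in GMPs, with overlapping groups. Its difference from GMPs was -0.11 ± 0.10 with adjusted p = 0.366, and the sign turned with upper-quartile (0.01), total-count (0.67) and protein-coding (0.26) scaling, called higher in the last 2. Slc7a2, the arginine importer CAT2 known from activated macrophages, measured 2.48, 1.39, 1.78 and 1.56 CPM in EMCN+ LT-HSCs, 0.918, 1.45 and 0.940 CPM in EMCN- LT-HSCs and 3.00, 3.43, 2.96 and 3.17 CPM in GMPs. With TMM all 7 LT-HSC libraries lay below all 4 GMP libraries, and the difference was -1.09 ± 0.40 with adjusted p = 0.0216. The call was lost with total-count scaling (-0.31, adjusted p = 0.506), protein-coding scaling (0.0945), no low-count filter (0.0789) and without GMP replicate 2 (0.051).

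Slc7a4, which resembles the cationic carriers in sequence, measured 7.94, 8.09, 8.58 and 6.84 CPM in EMCN+ LT-HSCs, 4.44, 5.65 and 5.40 CPM in EMCN- LT-HSCs and 3.00, 1.47, 0.683 and 1.49 CPM in GMPs. The populations did not overlap, with EMCN+ LT-HSCs highest. The difference from GMPs was 1.93 ± 0.33, or 3.82-fold, with adjusted p = 3.09e-05. It passed the low-count filter only through the LT-HSC libraries, so this p is no independent support. Exons of Slc7a4 overlap P2rx6, and those of Slc7a2 overlap Gm26584, on the opposite strand. Slc7a14, a lysosomal member, averaged 3.10 ± 0.457, 3.55 ± 0.858 and 4.51 ± 0.729 CPM in EMCN+ LT-HSCs, EMCN- LT-HSCs and GMPs, and its difference of -0.47 ± 0.30 from GMPs had adjusted p = 0.186 and turned to 0.31 with total-count scaling.

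The SLC1 family had a single called member, Slc1a4. Slc1a4 encodes ASCT1, a sodium-dependent exchanger of serine, alanine, cysteine and threonine, and its promoter above holds a TGATGNAA match across the transcription start. It measured 2.38, 3.28, 4.68 and 3.13 CPM in EMCN+ LT-HSCs, 1.68, 1.78 and 3.05 CPM in EMCN- LT-HSCs and 0.473, 0, 0.683 and 0.187 CPM in GMPs. Every LT-HSC library exceeded every GMP library, and no GMP library held more than 3 counts. The fitted difference was 3.04 ± 0.63 with adjusted p = 0.000244, and its size rests on those few GMP counts. Since only the LT-HSC libraries carried Slc1a4 past the low-count filter, this p is no independent support. Slc1a5, the glutamine carrier ASCT2, measured 31.0, 24.7, 28.4 and 23.5 CPM in EMCN+ LT-HSCs, 25.9, 31.2 and 28.7 CPM in EMCN- LT-HSCs and 41.6, 30.2, 31.0 and 30.6 CPM in GMPs. GMP replicate 1 stood above the rest, and the other 3 GMP libraries lay inside the LT-HSC range. The difference of -0.27 ± 0.12 had adjusted p = 0.0625. Leaving out EMCN+ replicate 1 gave 0.0457, leaving out EMCN- replicate 2 gave 0.0299, and the sign turned with total-count (0.51, called higher) and protein-coding (0.10) scaling. The other 5 members, the glutamate transporters Slc1a1, Slc1a2, Slc1a3, Slc1a6 and Slc1a7, did not pass the filter.

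Of the 6 tested SNAT genes, Slc38a9 alone was called with TMM. Slc38a9 is a lysosomal protein that senses arginine for mTORC1. It measured 17.0, 24.5, 24.6 and 30.5 CPM in EMCN+ LT-HSCs, 19.7, 19.5 and 22.6 CPM in EMCN- LT-HSCs and 13.6, 13.7, 17.8 and 20.3 CPM in GMPs. The ranges overlapped between 17.0 and 20.3 CPM, and within each of the 4 mice the EMCN+ library was above the GMP library. The difference was 0.46 ± 0.17, or 1.38-fold, with adjusted p = 0.0198. It lost the call without GMP replicate 1 (0.0768) or without GMP replicate 2 (0.0787). Its exons overlap Gm47827 on the opposite strand.

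None of the 4 abundant SNAT genes was called with TMM in the fit without a mouse block. Slc38a1, SNAT1, measured 142, 150, 130 and 153 CPM in EMCN+ LT-HSCs, 146, 152 and 157 CPM in EMCN- LT-HSCs and 144, 135, 139 and 134 CPM in GMPs, a difference of 0.09 ± 0.08 from GMPs (adjusted p = 0.337). Slc38a2, SNAT2, the member best known for induction by amino acid shortage, measured 117, 127, 134 and 120 CPM in EMCN+ LT-HSCs, 121, 120 and 125 CPM in EMCN- LT-HSCs and 115, 119, 115 and 110 CPM in GMPs, a difference of 0.10 ± 0.08 (adjusted p = 0.262). Both genes overlapped between groups with TMM, and both were called higher with upper-quartile (0.21 for Slc38a1, 0.23 for Slc38a2), protein-coding (0.46 and 0.48) and total-count (0.87 and 0.89) scaling. Slc38a10 measured 86.3, 94.1, 76.2 and 64.9 CPM in EMCN+ LT-HSCs, 63.5, 90.1 and 80.8 CPM in EMCN- LT-HSCs and 89.9, 83.7, 80.1 and 91.1 CPM in GMPs. Its difference of -0.12 ± 0.11 (adjusted p = 0.373) turned positive with upper-quartile (0.01), total-count (0.66) and protein-coding (0.26) scaling and was called in the last 2. Slc38a7, a lysosomal glutamine exporter, averaged 8.54 ± 2.62, 4.97 ± 1.57 and 6.68 ± 0.519 CPM in EMCN+ LT-HSCs, EMCN- LT-HSCs and GMPs, with a difference from GMPs of 0.00445 ± 0.257. It was called higher in LT-HSCs with total-count scaling (0.78, adjusted p = 0.0088).

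Slc38a6, a SNAT member whose substrates are less well defined, differed between mice. It measured 75.4, 99.8, 80.2 and 144 CPM in EMCN+ LT-HSCs of mice 1 to 4, 69.5, 94.6 and 143 CPM in EMCN- LT-HSCs of mice 1, 2 and 4, and 79.4, 114, 113 and 145 CPM in GMPs of mice 1 to 4. All 3 populations were lowest in mouse 1 and highest in mouse 4, and the mean over a mouse's libraries was 74.7, 103, 96.4 and 144 CPM in mice 1 to 4. An F test on the mouse terms of the edgeR fit, added after these values were seen, gave F = 26.0 and an adjusted p of 0.00303, rank 2 among 14915 genes. Only 25 genes (0.168%) were called by that test, and Slc38a6 was the only one of the 24 transporters. Between populations the group ranges overlapped, and the difference from GMPs was -0.17 ± 0.26 with adjusted p = 0.609. With mouse as a block it was -0.20 with adjusted p = 0.0479 over 11 libraries and -0.13 with adjusted p = 0.191 over 9, and the sign turned with total-count (0.60, adjusted p = 0.0443) and protein-coding (0.21) scaling.

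**Figure D3:**
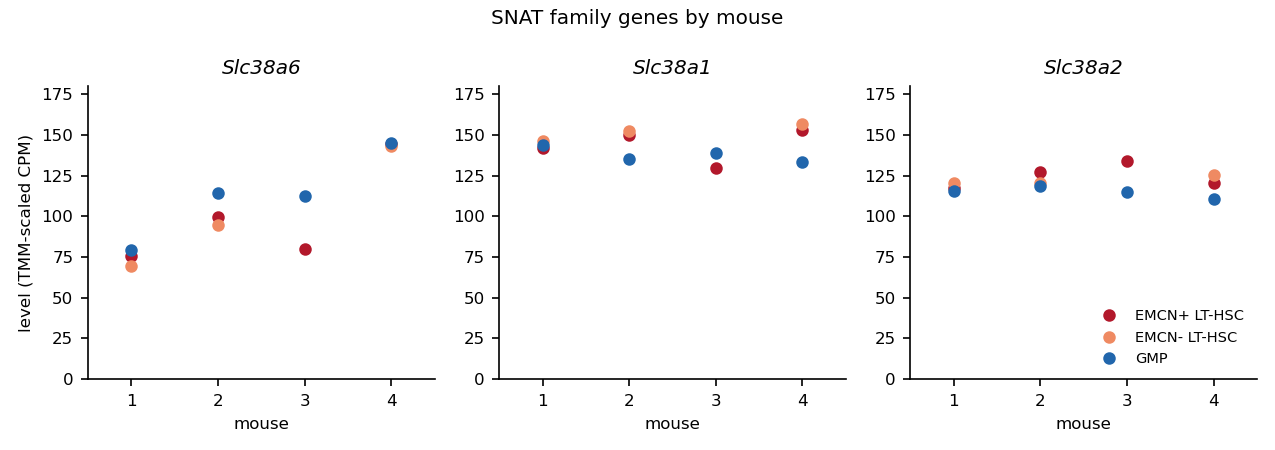
TMM-scaled CPM of Slc38a6, Slc38a1 and Slc38a2 in each library against the mouse it came from, with EMCN+ LT-HSCs, EMCN- LT-HSCs and GMPs as separate colours (mouse 3 has no EMCN- library). Slc38a6 lies between 69.5 and 79.4 CPM in mouse 1 and between 143 and 145 CPM in mouse 4 in all 3 populations, while Slc38a1 and Slc38a2 show no such order.

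The proton-coupled family held the largest falls in LT-HSCs. Slc36a1 encodes PAT1, which moves small neutral amino acids with protons out of the lysosome and has been tied to mTORC1. It measured 9.13, 12.0, 10.4 and 11.7 CPM in EMCN+ LT-HSCs, 12.5, 10.5 and 10.8 CPM in EMCN- LT-HSCs and 36.1, 47.5, 39.8 and 31.7 CPM in GMPs. The LT-HSC groups overlapped each other and lay far below every GMP library. The difference was -1.82 ± 0.14, 3.52-fold lower in LT-HSCs with adjusted p = 2.69e-10, and it was called in all 21 alternatives. Its printed promoter stretch holds 2 E-box matches. Slc36a2, PAT2, a carrier of proline, glycine and alanine, had 0 counts in all 7 LT-HSC libraries and 0, 3.75, 3.19 and 1.87 CPM in GMPs. In those GMP libraries the counts were 0, 23, 14 and 10, so GMP replicate 1 was at 0 like the LT-HSCs. Against 3 counts over the LT-HSC group, 0.0541 CPM, the pooled GMP level of 2.12 CPM was 39.1-fold higher. That figure takes the GMP counts as exact, while the GMP libraries averaged 2.20 ± 1.67 CPM, so it is no lower limit for the populations. The fitted difference of Slc36a2 had adjusted p = 0.000432. The gene passed the filter only through GMPs, so this p is no independent support, and no fit that left out a GMP library tested it. Of the 21 alternatives, 11 tested Slc36a2, and these kept the call. Slc36a4 averaged 17.5 ± 1.39, 13.3 ± 3.64 and 18.6 ± 3.56 CPM in EMCN+ LT-HSCs, EMCN- LT-HSCs and GMPs and was not called with TMM (-0.27 ± 0.16, adjusted p = 0.168). Its sign turned with protein-coding scaling (0.11) and with total-count scaling, where it was called higher (0.52, adjusted p = 0.0110). Slc36a1 and Slc36a2 are neighbours with Slc36a3 on chromosome 11 (GRCm38), where Slc36a1 spans chr11:55204350-55236330, Slc36a2 spans chr11:55158470-55185077 and Slc36a3 spans chr11:55124815-55151708. Slc36a3 did not pass the filter, with 0 counts over all LT-HSC libraries and 5 over all GMP libraries.

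In the SLC43 family a pair of neighbouring genes moved in opposite directions. Slc43a3 sits in this family by sequence but is known as a carrier of purine nucleobases, and Slc43a1 encodes LAT3, a carrier of leucine and other large neutral amino acids. Both lie on the plus strand of chromosome 2, at chr2:84936579-84958509 for Slc43a3 and chr2:84838850-84863594 for Slc43a1. Slc43a3 measured 17.5, 18.2, 19.5 and 14.9 CPM in EMCN+ LT-HSCs, 13.8, 16.8 and 17.4 CPM in EMCN- LT-HSCs and 51.7, 45.7, 46.0 and 45.7 CPM in GMPs. Every LT-HSC library lay below every GMP library, and the difference was -1.49 ± 0.11, 2.80-fold lower in LT-HSCs with adjusted p = 3.21e-10. Slc43a1 measured 15.4, 12.4, 19.9 and 13.5 CPM in EMCN+ LT-HSCs, 16.4, 13.6 and 18.1 CPM in EMCN- LT-HSCs and 12.1, 9.79, 7.97 and 6.90 CPM in GMPs. The lowest LT-HSC library stood just above the highest GMP library. The difference was 0.75 ± 0.19, or 1.68-fold higher in LT-HSCs with adjusted p = 0.00211. Both calls were kept in all 21 alternatives. Per kilobase, the ratio of Slc43a3 to Slc43a1 was 1.40 ± 0.250 in EMCN+ LT-HSCs, 1.21 ± 0.243 in EMCN- LT-HSCs and 6.37 ± 1.28 in GMPs (SD, n = 4, 3 and 4). Slc43a2, the related carrier LAT4, measured 33.8, 39.0, 23.3 and 28.3 CPM in EMCN+ LT-HSCs, 24.0, 26.5 and 25.1 CPM in EMCN- LT-HSCs and 25.7, 32.8, 30.1 and 23.0 CPM in GMPs, a difference of 0.03 ± 0.14 (adjusted p = 0.859). Slc43a2 was called higher in LT-HSCs with total-count (0.82, adjusted p = 3.3e-05) and protein-coding (0.40, adjusted p = 0.00991) scaling. Slc43a2 and Slc38a10 also share exonic sequence with opposite-strand genes, Gm45606 and Gm11769.

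**Figure D4:**
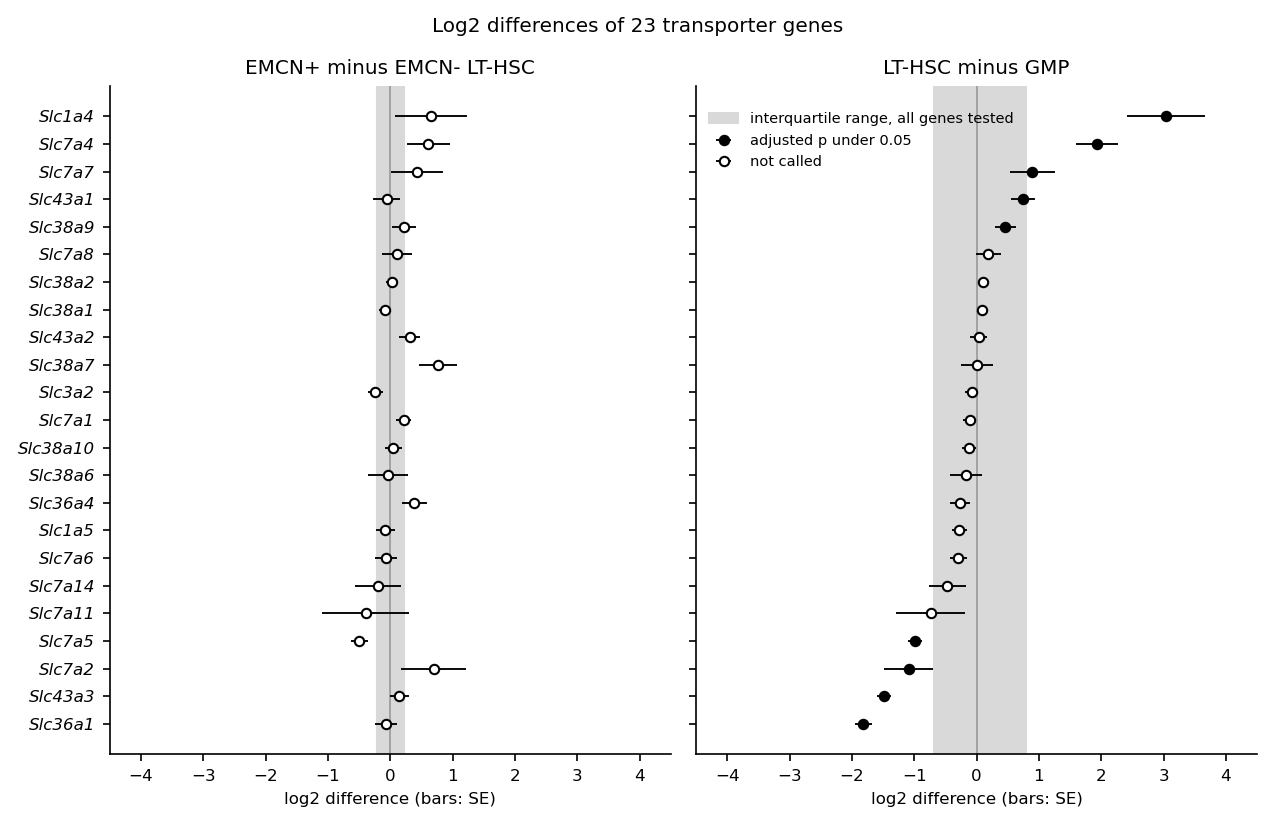
Log2 differences with SE of 23 transporter genes for EMCN+ minus EMCN- LT-HSCs (left) and LT-HSCs minus GMPs (right). Filled points are called genes, open points are not called, and the grey band is the interquartile range of all tested genes. No point is filled on the left, where Slc7a5 lies lowest at -0.49 and Slc38a7 highest at 0.76, while on the right 9 points are filled, of which Slc43a1 and Slc38a9 lie within the band. Signs of uncalled genes near 0 on the right turn with other scalings, among them Slc3a2, Slc7a1, Slc38a10, Slc38a6, Slc36a4, Slc1a5 and Slc7a6. Slc36a2, at 0 in all LT-HSC libraries, is left out.

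Between EMCN+ and EMCN- LT-HSCs no transporter gene was called in either direction, where 0.771% of all tested genes were higher and 1.19% were lower (1.96% in all). DESeq2, limma-voom and the other alternatives, 22 in all, likewise called 0 of the tested transporters in either direction. By edgeR 2 of 24 genes had an unadjusted p under 0.05, Slc7a5 and Slc38a7, as did 2076 of the 14915 genes tested. The median log2 difference was 0.04 over the 24 genes and 0 over all genes, and 13 of the 24 were positive. The difference of Slc7a5 was -0.49 ± 0.14, or 1.41-fold lower in EMCN+ LT-HSCs, with adjusted p = 0.0785 (0.0566 to 0.336 over the alternatives). Slc7a5 was lower in the EMCN+ library of all 3 mice that had both fractions, and its heavy chain Slc3a2 was lower in the same 3 mice with a difference of -0.24 ± 0.12 (adjusted p = 0.400). With TMM every EMCN+ library lay below every EMCN- library in both genes, as in 6.99% of all genes. Scaled by total counts, the fractions overlapped in both genes. Slc7a4 alone had all 4 EMCN+ libraries above all 3 EMCN- libraries, as in 7.25% of all genes, with a difference of 0.61 ± 0.34 (adjusted p = 0.454). Slc38a7 had a difference of 0.76 ± 0.31 (adjusted p = 0.249), positive in 3 of 3 mice, and its groups overlapped. The 19 endothelial markers summed to 430 to 569 CPM in EMCN+ and 304 to 343 CPM in EMCN- LT-HSCs, and of 15 tested 14 were positive and 1 was called. That list holds Emcn, the gene of the sort (EMCN+ fraction 26.2 ± 1.37 CPM, EMCN- fraction 14.4 ± 1.76 CPM), and Vwf (129 ± 32.8 and 49.8 ± 4.42 CPM in the same order). All 12 LT-HSC markers were positive with 4 called, and of 8 tested megakaryocyte and platelet markers 1 was positive and 3 were called. Their part in these differences was not tested.

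Among genes that respond to amino acids or use them, the share called against GMPs was 51.9% to 65.2% over 6 lists, where 62.5% of all tested genes were called, 32.5% higher and 29.9% lower. With total counts higher calls outnumbered lower ones in all 6 lists, as they did over all genes, with 9063 higher and 1907 lower. Of 25 tested amino acid response genes, 8 were higher and 8 lower in LT-HSCs with TMM, and 16 were higher and 3 lower with total counts. Ppp1r15a, which restarts translation after stress, averaged 72.3 ± 15.6 CPM in LT-HSCs and 9.36 ± 2.18 CPM in GMPs (2.95 ± 0.22, adjusted p = 3.19e-08), and the pseudokinase Trib3, a target of ATF4, averaged 6.79 ± 2.88 and 0.168 ± 0.134 CPM (4.99 ± 0.47, adjusted p = 7.43e-09). In GMP libraries 1 count was worth 0.158 to 0.228 CPM, so the size for Trib3 rests on few GMP counts. Trib3 passed the low-count filter only through LT-HSCs, so its p is no independent support. On the other side Cebpb, a transcription factor of myeloid cells, averaged 10.9 ± 2.50 CPM in LT-HSCs and 37.6 ± 4.24 CPM in GMPs (-1.79 ± 0.14, adjusted p = 6.77e-10). Of 41 tested genes of amino acid sensing and mTORC1, 16 were higher and 8 lower with TMM, and 33 and 4 with total counts. The leucine sensor relative Sesn3 averaged 76.7 ± 9.22 CPM in LT-HSCs and 10.3 ± 2.70 CPM in GMPs (2.91 ± 0.15, adjusted p = 9.99e-13). Castor2, of the arginine sensor family, averaged 22.0 ± 3.17 and 4.00 ± 1.13 CPM (2.43 ± 0.20, adjusted p = 7.02e-10). Lamtor4, a subunit of the lysosomal Ragulator scaffold, averaged 10.1 ± 2.15 CPM in LT-HSCs and 56.9 ± 7.50 CPM in GMPs (-2.51 ± 0.14, adjusted p = 2.08e-12).

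In the 3 lists made up mainly of enzymes that use amino acids, lower calls outnumbered higher ones with TMM. Over all genes 29.9% were lower and 32.5% higher, and in the 3 lists the reverse held with total counts. Of 24 tested genes in the list of cytosolic aminoacyl-tRNA synthetases, 2 were higher and 13 lower in LT-HSCs with TMM. With total counts 17 were higher and 2 lower. That list also holds Aimp1, Aimp2 and Eef1e1, which are not synthetases, and Aimp1 (-0.66) and Aimp2 (-0.92) were among the 13 lower genes. The 2 higher genes were Vars, for valine, at 143 ± 10.8 CPM in LT-HSCs and 79.9 ± 8.79 CPM in GMPs (0.84 ± 0.09, adjusted p = 1.30e-07), and Wars, for tryptophan, whose call was lost without GMP replicate 3 (adjusted p = 0.0592) or 4 (0.0537). Dars, for aspartate, averaged 107 ± 12.9 CPM in LT-HSCs and 229 ± 28.3 CPM in GMPs (-1.10 ± 0.09, adjusted p = 1.49e-09). Of 27 tested enzymes of glutamine, glutamate, branched-chain amino acids and arginine, 1 was higher and 13 lower with TMM, and 14 and 5 with total counts. The higher one was Glul, glutamine synthetase, at 226 ± 28.0 CPM in LT-HSCs and 48.4 ± 4.79 CPM in GMPs (2.21 ± 0.10, adjusted p = 1.60e-13). Ass1, which makes argininosuccinate, averaged 22.4 ± 5.10 CPM in LT-HSCs and 73.2 ± 3.21 CPM in GMPs (-1.72 ± 0.11, adjusted p = 2.52e-11). Of 23 tested serine, glycine, cysteine and methionine enzymes, 2 were higher and 13 lower with TMM, and 11 and 2 with total counts. Psat1 of serine synthesis averaged 40.9 ± 11.4 CPM in LT-HSCs and 86.0 ± 13.0 CPM in GMPs (-1.11 ± 0.11, adjusted p = 3.09e-08). The 2 higher genes were Srr, serine racemase (0.98 ± 0.22, adjusted p = 0.000622), and Mthfd2l, whose call was lost without GMP replicate 2 (0.0881).

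A list made up mainly of amino acid and peptide transporters outside these families gave 7 higher and 9 lower of 27 tested with TMM (59.3% called, against 62.5% of all genes). With total counts it gave 15 and 3. The list also holds Slc37a4, Slc33a1 and Slc44a2, which are not carriers of amino acids or peptides. Of these, Slc37a4 (-0.95) and Slc33a1 (-0.83) were among the 9 lower genes. Sfxn3, a mitochondrial serine transporter relative, averaged 30.9 ± 3.79 CPM in LT-HSCs and 7.16 ± 1.31 CPM in GMPs (2.11 ± 0.16, adjusted p = 3.35e-10). Slc16a10, a carrier of aromatic amino acids, averaged 5.48 ± 0.734 CPM in LT-HSCs and 27.0 ± 2.11 CPM in GMPs (-2.30 ± 0.16, adjusted p = 5.37e-11). Between the LT-HSC fractions, where 1.96% of all genes were called, the 6 lists held 0 to 2 calls each. Slc15a3, a lysosomal peptide and histidine transporter, averaged 3.64 ± 0.580 CPM in EMCN+ LT-HSCs and 0.288 ± 0.0470 CPM in EMCN- LT-HSCs (3.56 ± 0.72, adjusted p = 0.0118, and 0.0855 without EMCN- replicate 1). In EMCN- libraries 1 count was worth 0.153 to 0.235 CPM, so the size of that difference rests on few counts. The EMCN- libraries did not carry Slc15a3 past the low-count filter, so its p is no independent support. Slc17a8, a vesicular glutamate transporter, averaged 12.7 ± 1.85 and 4.35 ± 1.62 CPM (1.57 ± 0.32, adjusted p = 0.0134). That call was lost without EMCN+ replicate 2 (0.0817), EMCN- replicate 1 (0.124) or EMCN- replicate 2 (0.0575). Psat1 was lower in EMCN+ LT-HSCs, at 32.6 ± 5.21 CPM against 51.9 ± 4.99 CPM in EMCN- LT-HSCs (-0.66 ± 0.14, adjusted p = 0.0166). Its call was lost with total-count scaling (0.134) or without EMCN- replicate 1 (0.150). Sat1, an enzyme of polyamine breakdown, was higher in EMCN+ LT-HSCs (0.62 ± 0.16, adjusted p = 0.0439) but not with mouse as a block over 11 (0.0655) or 9 libraries (0.0941). It also lost the call with limma-voom (0.140) and in the fit of the 7 LT-HSC libraries alone (0.0764). Leaving out EMCN+ replicate 3 (0.106) or 4 (0.0881), EMCN- replicate 1 (0.223), 2 (0.0667) or 4 (0.134) or GMP replicate 3 (0.0584) or 4 (0.0568) lost it too. No gene of the synthetase list and no sensing gene was called between the fractions by edgeR. At an unadjusted p under 0.05 there were 3 of the 24 genes in the synthetase list, led by Gars (-0.36, adjusted p = 0.154). The sensing list held 1 of 41, Sec13 (-0.33, adjusted p = 0.240), beside 2076 of the 14915 genes tested. DESeq2 also called 0 in both lists.

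The 18 genes that did not pass the filter had at most 33 counts over all 11 libraries and at most 1.17 CPM in any library, a level reached by Slc3a1. They were the heavy chain Slc3a1, its partner Slc7a9 and the other light chains Slc7a10, Slc7a12, Slc7a13 and Slc7a15, the cationic carrier Slc7a3, the 5 glutamate transporters, the SNAT genes Slc38a3, Slc38a4, Slc38a5, Slc38a8 and Slc38a11, and Slc36a3. Slc7a12 and Slc7a15 had 0 counts in every library. A count of 0 still allows a level of up to 3 counts, which was 0.209 to 0.705 CPM depending on the library, so lower levels were not detectable.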

How the data were processed

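The deposited table holds estimated counts per gene from the authors, for which the submitters' processing notes name cutadapt and Salmon, and they sum to 3.63 M to 11.1 M per library. Versions, genome build and the step from transcripts to genes are not given in the sources used here. The labels' protocols name a stranded total-RNA kit for low input, while the molecule label says polyA RNA, so which RNA was captured is not settled here. All values were whole numbers and were rounded as a safeguard. Of 54347 gene identifiers 54094 matched GENCODE M21 (GRCm38) without the version number, which supplied coordinates and transcript lengths.

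Genes were filtered with filterByExpr by group at a minimum count of 10, and all 11 libraries were fitted together in edgeR 4.0.16 (R 4.3.3) with robust quasi-likelihood dispersions, TMM scaling and no term for mouse. Contrasts were EMCN+ minus EMCN- LT-HSCs and LT-HSCs (7 libraries weighted equally) minus GMPs, with Benjamini-Hochberg adjustment over all 14915 genes and a threshold of 0.05. Standard errors are the log2 difference over the root of F. Group values are mean ± SD. Alternatives used other scalings, filters, DESeq2 1.42.0, limma-voom (limma 3.58.1), mouse blocks and each library left out. Protein-coding scaling and the mouse F test were added after the data were seen.

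The mouse number in the labels marks the animal, so libraries of 1 mouse are paired. Deviations from the group means of same-mouse libraries correlated at 0.198 on average between EMCN+ and EMCN- LT-HSCs (0.165 to 0.223, 3 pairs), at 0.133 between EMCN- LT-HSCs and GMPs and at 0.0253 between EMCN+ LT-HSCs and GMPs. Pairs from different mice averaged -0.0657 (up to 0.190), -0.0442 (up to 0.0622) and -0.00833 (up to 0.160) in the same order. Chi-square values divided by their degrees of freedom were 8.86 to 37.8 between replicates, above sampling noise. No molecular identifiers are named in the sources used here, so limits from counts cover counting error only.

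The members, lists and tests were chosen with earlier results of these data known. Values in every library are given for called genes, for genes averaging at least 20 CPM and for Slc7a11. Of each companion list, up to 4 called genes per direction were allowed by smallest adjusted p, and not all were named.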

Additional observations from a re-analysis of the deposited data

Results flagged for a closer look

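Among 49 groups of 4 libraries examined, 4 held a library far from the other 3, and chance gives about 1 in 20. Slc1a5 was at 41.6 CPM in GMP replicate 1, against 30.2 to 31.0 CPM in the other GMP libraries. Slc43a3 was at 51.7 CPM in GMP replicate 1, against 45.7 to 46.0 CPM in the others, all of them far above every LT-HSC library. Slc7a14 was at 5.60 CPM in GMP replicate 4, against 4.10 to 4.24 CPM in the others. Slc7a6 was at 20.1 CPM in EMCN+ replicate 1, against 20.6 to 20.7 CPM in the other EMCN+ libraries, a narrow gap in a gene whose EMCN+ libraries lay close together.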

How the results depend on the processing

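No transporter was called between EMCN+ and EMCN- LT-HSCs in any of the 22 alternatives, and the counts against GMPs moved mainly with the scaling. The 293 genes called between the fractions became 529 with no filter, 451 with DESeq2, 441 with protein-coding scaling and 55 to 338 with a library left out (55, 194 and 191 on dropping EMCN- replicates 1, 2 and 4, and 105 and 184 on dropping EMCN+ replicates 2 and 4). With total counts 161 were higher and 50 lower, against 115 and 178. With mouse as a block the count was 374 over 11 libraries and 412 over 9. Among the transporters it tested, the block changed no call other than those of Slc38a6 and Slc7a7 given above. The block over 9 libraries did not test Slc36a2. Transporters higher than in GMPs numbered 17 with total counts, 12 with protein-coding scaling and 3 to 5 with a library left out. Those lower numbered 3 with total counts, 3 with protein-coding scaling, 3 with the filter at 5 CPM, which tests fewer genes, and 4 to 7 with a library left out. Summed by total counts, the transporters reached 964 CPM in EMCN+ LT-HSCs, 889.7 in EMCN- LT-HSCs and 604 in GMPs. Except as said, the cause was not tested.

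The log2 difference of a transporter changed sign only where the gene was not called in that comparison with TMM. Against GMPs these were, with total counts, Slc1a5 0.51, Slc3a2 0.70, Slc7a11 0.0496, Slc7a6 0.48, Slc7a1 0.67, Slc36a4 0.52, Slc38a6 0.60, Slc38a10 0.66 and Slc7a14 0.31, with protein-coding scaling Slc1a5 0.10, Slc3a2 0.30, Slc7a6 0.0780, Slc7a1 0.26, Slc36a4 0.11, Slc38a6 0.21 and Slc38a10 0.26, with upper quartiles Slc3a2 0.0455, Slc7a1 0.0121 and Slc38a10 0.00546, and for Slc38a7 -0.11 with voom and -0.0143 and -0.137 with the mouse block over 11 and 9 libraries. With a library left out Slc38a7 ran from -0.14 to 0.12, Slc43a2 from -0.0556 to 0.12 and Slc7a8 from -0.0351 to 0.34. Between EMCN+ and EMCN- LT-HSCs these were, with total counts, Slc1a5 0.0344, Slc36a1 0.0379, Slc38a1 0.0280, Slc43a1 0.0464, Slc7a6 0.0433 and Slc38a6 0.0649, with protein-coding scaling Slc38a6 0.0116, and with the block Slc38a6 0.0213 and 0.0698 and Slc38a2 -0.00499. With a library left out Slc36a1 ran from -0.13 to 0.0190, Slc38a6 from -0.26 to 0.28, Slc43a1 from -0.21 to 0.0360, Slc38a10 from -0.0851 to 0.16, Slc38a2 from -0.00282 to 0.0600 and Slc7a6 from -0.16 to 0.0286.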

Other observations

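By role, the summed level of the proton-coupled family was 28.3 ± 2.05 CPM in EMCN+ LT-HSCs, 24.6 ± 4.75 CPM in EMCN- LT-HSCs and 59.8 ± 9.45 CPM in GMPs (SD, n = 4, 3 and 4), and LT-HSCs were below GMPs with TMM (ratio 0.446) and total counts (0.774). The light chains summed to 62.5 ± 1.27, 71.0 ± 6.47 and 94.2 ± 6.58 CPM in the same order, and the SLC43 family to 63.9 ± 5.58, 57.2 ± 3.24 and 84.4 ± 6.33 CPM. For these families the ratio of LT-HSCs to GMPs was 0.702 and 0.723 with TMM and 1.20 and 1.25 with total counts. Of the 25 genes called by the mouse F test, 16 were highest in mouse 4, as Slc38a6 was, and 13 of the 25 had no symbol.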
